A study of Mus musculus with 42 samples.

Results

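Threonine breakdown, glycine cleavage and one-carbon metabolism are described here through 10 mouse genes, Tdh, Gcat, Gldc, Amt, Shmt1, Shmt2, Mthfd1, Mthfd1l, Mthfd2 and Mat2a, taken by name from the 48321 gene names of each of 2 count tables. The libraries follow embryonic fibroblasts (MEF) on their way to induced pluripotent stem cells (iPSC), in 42 RNA-seq libraries of 14 groups with 3 libraries each. All libraries are labelled male. How reprogramming was induced is not given in the sources used here.

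The naivex2 lines come from crosses of a Tet1-mCherry transgene (B37Koh, on B6;129S4) with a Pou5f1-EGFP transgene (2Mnn/J, on B6;CBA) and are labelled Tg(mCherry)/wt and Tg(GFP)/wt. Their groups are MEF at day 0, mCherry+/GFP- cells at day 10, mCherry+/GFP+ and mCherry+/GFP- cells at days 12 and 14, and iPSC. The totalx2 lines have the reporters at the Tet1 and Pou5f1 genes by strain name (alleles Tet1tm1.1Koh on B6, and Pou5f1tm2Jae/J on B6;129S4), and are labelled with the same genotype, Tg(mCherry)/wt; Tg(GFP)/wt. Their groups are mCherry+/GFP- cells at day 8 and mCherry+/GFP+ and mCherry+/GFP- cells at days 10 and 12. The table of the totalx2 lines also holds iPSC clones of the Tet1tm1Koh strain, crossed to the Pou5f1-EGFP transgene, that are Tet1 KO (mut/mut;GFP/wt) or wild-type (wt/wt;GFP/wt). Each iPSC library is 1 clonal line at passage 6-7, grown on feeder cells in KSR medium and freed of feeders before harvest. The title of replicate 2 of the totalx2 day 12 mCherry+/GFP- group lacks the mark for mCherry, and its gate was taken from the source name.

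Threonine dehydrogenase, encoded by Tdh, and its partner Gcat turn threonine into glycine and acetyl-CoA in mitochondria, a route known for its high activity in mouse pluripotent cells. Gldc and Amt are parts of the glycine cleavage system, which passes a carbon of glycine to tetrahydrofolate. The serine hydroxymethyltransferases Shmt1 (cytosol) and Shmt2 (mitochondria) load folate from serine, Mthfd2 and Mthfd1l carry the folate-bound carbon to formate in mitochondria, Mthfd1 uses it in the cytosol for purines and thymidylate, and Mat2a makes S-adenosylmethionine, the methyl donor, from methionine.

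Depth was 6540256 to 20783265 counts a library. Mitochondrially encoded genes took 1.753 to 12.18% of counts, and 2 libraries stood over 8%, namely replicate 1 of the naivex2 day 10 cells (8.993%) and replicate 1 of the wild-type iPSC (12.18%). Summed levels of 10 fibroblast markers were 20600 to 21500 counts scaled to a common library total (CPM) in MEF and 557 to 5180 CPM in reprogramming cells of the naivex2 table. Within the other table they were 13100 to 20400 CPM in day 8 cells and 2170 to 12300 CPM in cells of days 10 and 12. Summed levels of 10 pluripotent markers were 4240 to 4610 CPM in naivex2 iPSC, against 1.83 to 3.11 CPM in MEF. All 10 genes passed the low-count filter in both tables, Tdh through the groups other than MEF. Levels below are CPM in replicates 1, 2 and 3 or mean ± SD (n = 3), and differences are log2 fold changes ± SE from edgeR's quasi-likelihood test, called at a Benjamini-Hochberg adjusted p under 0.05.

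Tdh, Gldc and Amt were near 0 in fibroblasts and far higher by day 10 in naivex2 cells. Tdh was at 416, 652 and 624 CPM in day 10 mCherry+/GFP- cells and at 0.235, 0.505 and 0 CPM in MEF. The 3 MEF libraries held 10 Tdh reads together (exact 95% Poisson interval 4.8 to 18.4, counting error only), and day 10 cells stood 2584-fold above that pooled level (1405 to 5389 over the same interval). The fitted log2 fold change was 11.28 ± 0.30, adjusted p = 4.36e-17. Gldc, the decarboxylating subunit of the glycine cleavage system, was at 169.5, 208 and 233 CPM in day 10 cells and 1.53, 2.19 and 1.42 CPM in MEF (log2 fold change 6.92 ± 0.28, adjusted p = 1.27e-13). Amt, the aminomethyltransferase of the same system, was at 95.3, 105 and 123 CPM in day 10 cells and 1.29, 1.18 and 2.66 CPM in MEF (log2 fold change 5.93 ± 0.22, adjusted p = 2.70e-15). Without MEF replicate 2 the fitted Tdh change was 12.15, and without MEF replicate 3, which held no Tdh read, 10.63. For these 3 genes every day 10 library lay above every MEF library, and 77.1% of all genes did not overlap in this comparison. The plot of threonine and glycine breakdown genes by library shows the step.

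**Figure D1:**
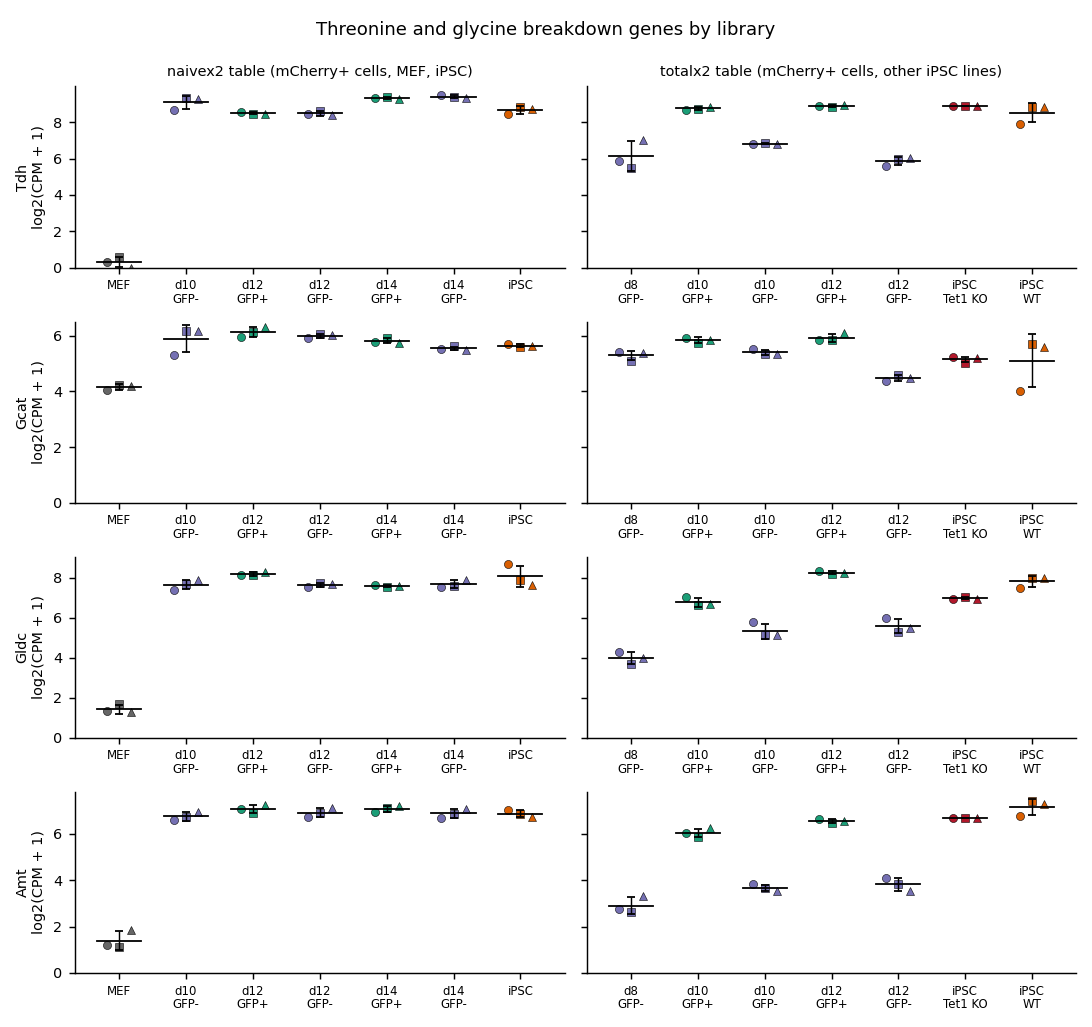
Levels of Tdh, Gcat, Gldc and Amt as log2(CPM + 1) in each library, with naivex2 groups on the left and totalx2 and other iPSC groups on the right. Circles, squares and triangles are replicates 1, 2 and 3, bars are the mean ± SD (n = 3), green marks GFP+, violet GFP-, grey MEF, orange iPSC and red Tet1 KO iPSC. Tdh, Gldc and Amt are near 0 in MEF only, and in totalx2 cells the GFP+ groups stand above the GFP- groups of the same day.

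Of the cytosolic folate genes among the 10, Shmt1 and Mthfd1 rose with them. Of the mitochondrial ones Mthfd1l rose slightly, Mthfd2 fell and Shmt2 did not pass the test. Gcat, which splits the product of Tdh into glycine and acetyl-CoA, was at 39.1, 71.7 and 71.6 CPM in day 10 cells and 15.6, 17.9 and 17.5 CPM in MEF (log2 fold change 1.84 ± 0.16, adjusted p = 1.41e-09). Shmt1 was 219 ± 37.4 CPM in day 10 cells and 47.6 ± 4.85 CPM in MEF (log2 fold change 2.20 ± 0.11, adjusted p = 1.09e-13), and Mthfd1 was 669.5 ± 61.3 CPM in day 10 cells and 147 ± 2.54 CPM in MEF (log2 fold change 2.19 ± 0.08, adjusted p = 1.29e-15). Mthfd2, the mitochondrial methylenetetrahydrofolate dehydrogenase, went the other way, with 99.1, 111 and 112 CPM in day 10 cells and 198, 183 and 178 CPM in MEF (log2 fold change -0.80 ± 0.13, adjusted p = 1.68e-05). Mthfd1l, the mitochondrial formate-tetrahydrofolate ligase, had a log2 fold change of 0.30 ± 0.09, adjusted p = 0.0031. Shmt2 (-0.28 ± 0.13, adjusted p = 0.0518) and Mat2a (-0.06 ± 0.09, adjusted p = 0.541) did not pass the test. In all, 7 of the 10 genes were higher and 1 was lower, with a median log2 fold change of 2.02, while 76.4% (38.8% higher and 37.6% lower) of all 16132 genes were called and the median of all genes was 0.06. The fibroblast markers together were at 808 to 1320 CPM in day 10 cells and 20600 to 21500 CPM in MEF. Scaled by library totals alone, Mat2a turned to a log2 fold change of 0.23 (adjusted p = 0.0341), with the median of all genes at 0.34. Shmt2 was called lower without MEF replicate 3 (log2 fold change -0.34, adjusted p = 0.0385) or day 10 replicate 3 (-0.32, adjusted p = 0.0488), and also with RLE size factors (-0.29, adjusted p = 0.0389), at 1 CPM in 3 libraries (-0.28, adjusted p = 0.0479) and by DESeq2 (-0.29, adjusted p = 0.0499). Without day 10 replicate 1 the same number of genes, 8, was called, with Tdh at 11.47.

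Gldc and Amt had the highest Pearson's r of all pairs in the naivex2 table (0.99). That value includes the MEF libraries, where both were near 0, and the part of those libraries was not tested. The promoter sequences of both are shown as 250 bases before to 50 bases after the start in RefSeq on GRCm38.p6. CCAAT or its complement is in capitals. The Gldc window is chr19:30175392-30175691 (minus strand) and the Amt window is chr9:108296655-108296954 (plus strand), each printed 5′ to 3′ in the gene's direction.
Gldc: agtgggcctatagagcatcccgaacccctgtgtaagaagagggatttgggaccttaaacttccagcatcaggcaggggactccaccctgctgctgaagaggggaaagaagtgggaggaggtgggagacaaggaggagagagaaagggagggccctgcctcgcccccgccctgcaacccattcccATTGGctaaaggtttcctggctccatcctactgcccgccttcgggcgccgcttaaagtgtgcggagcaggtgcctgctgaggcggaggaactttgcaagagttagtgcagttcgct
Amt: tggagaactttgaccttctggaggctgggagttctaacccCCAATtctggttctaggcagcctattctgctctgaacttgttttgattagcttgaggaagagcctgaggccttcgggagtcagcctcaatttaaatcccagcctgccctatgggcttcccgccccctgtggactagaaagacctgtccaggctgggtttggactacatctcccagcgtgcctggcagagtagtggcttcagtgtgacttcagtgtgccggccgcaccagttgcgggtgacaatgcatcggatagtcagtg
RefSeq promoters were matched for 9 of the 10 genes, all but Tdh. Both strands were searched for CCAAT, for the octamer ATTTGCAT bound by POU factors, for the E-box CACGTG and for TGATGNAA, the letters of the C/EBP-ATF response element. CCAAT was found in 6 of the 9 promoters, against 37.9% of the 27025 promoters of that length. The octamer was in 0 of 9 (1.75% of all), TGATGNAA in 0 of 9 (4.06% of all) and CACGTG in Gcat alone (7.24% of all). The motifs do not overlap each other in these windows, and no match says nothing about binding outside them.

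Within the naivex2 course from day 10 to day 14 the genes split again. In GFP- cells Mthfd2 was 107 ± 7.18 CPM at day 10, 156 ± 6.75 CPM at day 12 and 40.4 ± 1.98 CPM at day 14. Shmt2 was 210.2 ± 27.6, 249.7 ± 6.78 and 106 ± 6.29 CPM on the same days, and Mthfd1l 127 ± 3.31, 123 ± 3.83 and 63.5 ± 5.27 CPM. All 3 mitochondrial folate genes were thus lowest at day 14, with no overlap between the libraries of day 14 and those of either earlier day. Of all genes 45.6% did not overlap between days 14 and 10, and 55.7% between days 14 and 12. Mat2a was 237 ± 20.3 CPM at day 10, 91.0 ± 5.15 CPM at day 12 and 171 ± 12.7 CPM at day 14, lowest at day 12. Tdh was 564 ± 129, 362 ± 33.1 and 684 ± 42.8 CPM, also lowest at day 12.

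In the same GFP- cells fibroblast markers summed to 808 to 1320 CPM at day 10, 885 to 1400 CPM at day 12 and 3160 to 5180 CPM at day 14, and 8 trophectoderm markers to 10.8 to 14.5, 12.6 to 14.3 and 64.7 to 77.2 CPM on the same days. Day 14 had 7 of 10 fibroblast and 6 of 7 tested trophectoderm markers called higher than day 10, and 9 of 10 and 7 of 7 called higher than day 12, and their part in the results was not tested.

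Between day 14 and day 10 GFP- cells 6 genes fell and 0 rose, with a median log2 fold change of -0.44 against 0.03 for all genes, of which 36.8% (20.3% higher and 16.5% lower) were called. These were Mthfd2 (-1.41 ± 0.14, adjusted p = 2.34e-07), Shmt2 (-0.99 ± 0.13, adjusted p = 7.04e-06), Mthfd1l (-0.99 ± 0.09, adjusted p = 5.55e-08), Mat2a (-0.47 ± 0.09, adjusted p = 0.000221), Shmt1 (-0.47 ± 0.10, adjusted p = 0.00124) and Gcat (-0.41 ± 0.15, adjusted p = 0.035). The call of Gcat was lost without any of 5 libraries, namely each day 14 replicate or day 10 replicate 2 or 3, with adjusted p = 0.053 to 0.153. From day 10 to day 12, a comparison added after the levels had been seen, 3 genes were called beside 20.2% (10.1% higher and 10.1% lower) of all genes. Mat2a fell (-1.38 ± 0.09, adjusted p = 3.34e-09), Tdh fell (-0.64 ± 0.15, adjusted p = 0.00664) and Mthfd2 rose (0.54 ± 0.13, adjusted p = 0.00739). From day 12 to day 14, added likewise, 6 genes were called beside 36.8% (20.6% higher and 16.2% lower) of all genes, with Tdh (0.92 ± 0.16, adjusted p = 0.000135) and Mat2a (0.91 ± 0.09, adjusted p = 1.21e-07) up and Mthfd2 (-1.95 ± 0.14, adjusted p = 5.73e-09), Shmt2 (-1.23 ± 0.13, adjusted p = 4.52e-07), Mthfd1l (-0.96 ± 0.09, adjusted p = 7.02e-08) and Gcat (-0.47 ± 0.15, adjusted p = 0.0172) down. Gcat was no longer called there without day 14 replicate 1 (adjusted p = 0.0503) or replicate 3 (adjusted p = 0.0581). Shmt1 was called lower from day 10 to day 12 without day 10 replicate 1 (log2 fold change -0.37, adjusted p = 0.00386), the library of high mitochondrial share.

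**Figure D2:**
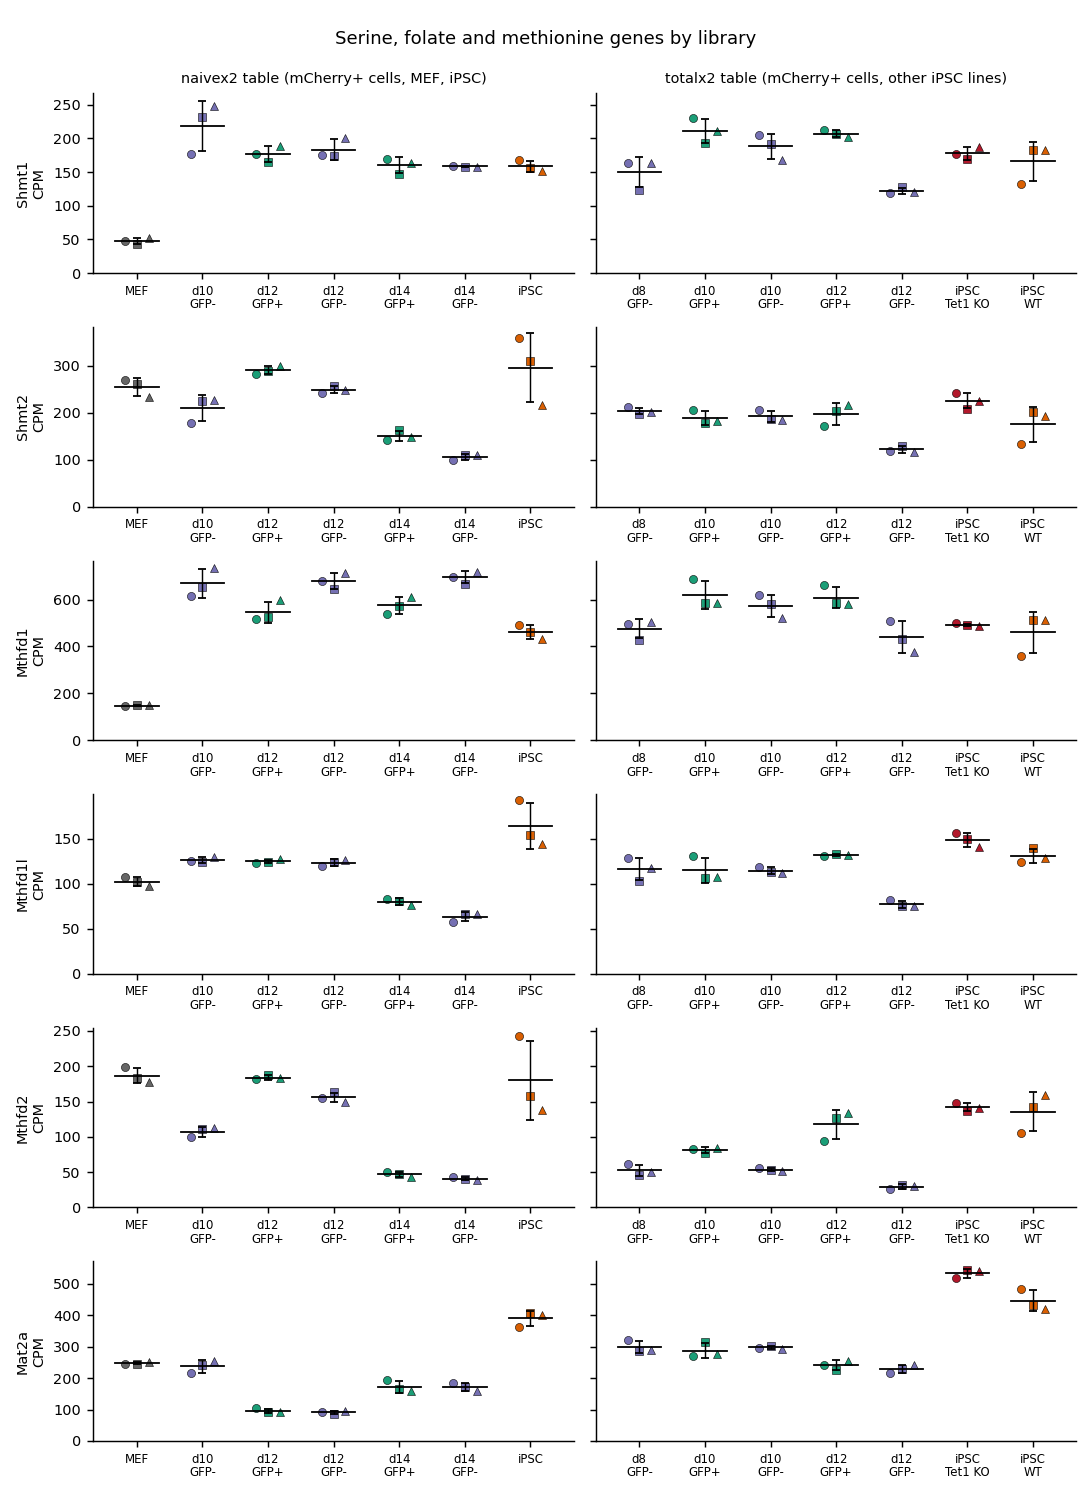
Levels of Shmt1, Shmt2, Mthfd1, Mthfd1l, Mthfd2 and Mat2a in CPM in each library, on linear axes from 0, with the symbols, colours and bars of the plot of threonine and glycine genes. In naivex2 cells Shmt2, Mthfd1l and Mthfd2 are lowest in both day 14 groups, and Mat2a is lowest in both day 12 groups.

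The same turn was seen in GFP+ cells, which come from the same lines and days. Mthfd2 was at 50.6, 46.9 and 42.5 CPM in day 14 GFP+ cells and 182, 187 and 183 CPM in day 12 GFP+ cells (log2 fold change -1.98 ± 0.14, adjusted p = 7.69e-09). Shmt2 was at 142, 162 and 149 CPM at day 14 and 283, 289.7 and 300.5 CPM at day 12 (log2 fold change -0.94 ± 0.13, adjusted p = 1.59e-05), and Mthfd1l was 80.3 ± 3.51 CPM at day 14 and 125 ± 1.93 CPM at day 12 (log2 fold change -0.64 ± 0.09, adjusted p = 1.47e-05). Each day 14 library was below each day 12 library for these 3 genes, and 50.2% of all genes did not overlap. Tdh was at 662, 664 and 631 CPM at day 14 and 378, 356 and 355 CPM at day 12 (log2 fold change 0.85 ± 0.16, adjusted p = 0.000396), and Mat2a was at 195, 165 and 158 CPM at day 14 and 103, 91.9 and 92.9 CPM at day 12 (log2 fold change 0.84 ± 0.09, adjusted p = 5.26e-07). Both rose, and neither pair of groups overlapped. Gldc fell (-0.59 ± 0.19, adjusted p = 0.0239), a call lost without any day 14 GFP+ replicate or day 12 GFP+ replicate 3 (adjusted p = 0.0575 to 0.0788). Amt, Gcat, Shmt1 and Mthfd1 did not pass the test. In all 2 of the 10 genes rose and 4 fell, beside 30.5% (14.5% higher and 16% lower) of all genes called. Summed fibroblast markers were 1610 to 2670 CPM at day 14 and 557 to 1080 CPM at day 12, and their part in the result was not tested.

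The 3 genes that fell together at day 14 have the promoter sequences below, drawn the same way, with CCAAT or its complement in capitals. The windows are chr10:127522395-127522694 (minus strand) for Shmt2, chr10:3972825-3973124 (plus strand) for Mthfd1l and chr6:83317555-83317854 (minus strand) for Mthfd2.
Shmt2: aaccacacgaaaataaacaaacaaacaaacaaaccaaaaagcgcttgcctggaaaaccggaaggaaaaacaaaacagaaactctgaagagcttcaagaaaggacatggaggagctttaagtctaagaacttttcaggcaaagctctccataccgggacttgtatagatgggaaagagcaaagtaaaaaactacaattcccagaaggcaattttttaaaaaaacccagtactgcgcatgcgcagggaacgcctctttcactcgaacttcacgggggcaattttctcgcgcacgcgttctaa
Mthfd1l: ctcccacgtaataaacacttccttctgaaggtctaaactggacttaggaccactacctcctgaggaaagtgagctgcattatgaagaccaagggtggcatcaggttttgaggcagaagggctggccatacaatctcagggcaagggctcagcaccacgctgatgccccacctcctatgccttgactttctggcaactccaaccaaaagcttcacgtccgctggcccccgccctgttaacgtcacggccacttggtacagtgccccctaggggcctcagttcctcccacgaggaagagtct
Mthfd2: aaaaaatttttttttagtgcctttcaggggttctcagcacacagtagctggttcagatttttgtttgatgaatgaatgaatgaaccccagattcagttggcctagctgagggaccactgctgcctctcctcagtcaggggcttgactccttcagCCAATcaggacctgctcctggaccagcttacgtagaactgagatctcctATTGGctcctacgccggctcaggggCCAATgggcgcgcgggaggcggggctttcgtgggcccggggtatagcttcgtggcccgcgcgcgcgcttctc
Mthfd2 held 3 matches to CCAAT, starting at offsets -96, -47 and -22 from the start, that at -47 on the other strand, and 3.56% of all promoters hold 3 or more. Shmt2 and Mthfd1l held none. The row deposited for Mthfd2 extends beyond this start, from 83305691 to 83325908 on chromosome 6.

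Genes that make serine and those of the amino acid response moved with Shmt2, Mthfd1l and Mthfd2. Between day 14 and day 12 GFP+ cells all 3 genes of serine synthesis fell, with a median log2 fold change of -1.67. Phgdh, the entry enzyme of serine synthesis from glycolysis, was 38.4 ± 4.90 CPM at day 14 and 141 ± 9.05 CPM at day 12 (-1.88 ± 0.21, adjusted p = 3.55e-06), and Psat1, the aminotransferase of the next step, was 157 ± 9.04 CPM at day 14 and 497 ± 4.73 CPM at day 12 (-1.67 ± 0.11, adjusted p = 2.75e-09). All 7 listed genes of the amino acid response fell, with a median of -1.69. The steepest falls among them were those of Chac1, which degrades glutathione (-3.51 ± 0.17, adjusted p = 7.40e-11), and Trib3, a pseudokinase (-1.89 ± 0.20, adjusted p = 1.88e-06), and Atf4, the transcription factor of that response, fell by less (-1.10 ± 0.12, adjusted p = 8.36e-07). Of 10 folate and amino acid carriers 7 fell and 1 rose. Slc1a4, a serine and alanine carrier, had the steepest fall (-1.80 ± 0.22, adjusted p = 1.08e-05), followed by Slc6a9, a glycine carrier (-1.57 ± 0.35, adjusted p = 0.00233), and Folr1, a folate receptor, rose (0.80 ± 0.12, adjusted p = 6.04e-05). Of 4 tested genes of glycine and threonine handling 1 rose and 1 fell. The fall was that of Gnmt, which encodes glycine N-methyltransferase (-2.20 ± 0.50, adjusted p = 0.00224). Of 13 tested methionine cycle genes 1 rose and 6 fell. Among the 10 other folate enzymes tested 2 rose and 2 fell, and of 6 purine synthesis genes 3 fell. These counts stand beside 30.5% (14.5% higher and 16% lower) of all genes called.

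**Figure D3:**
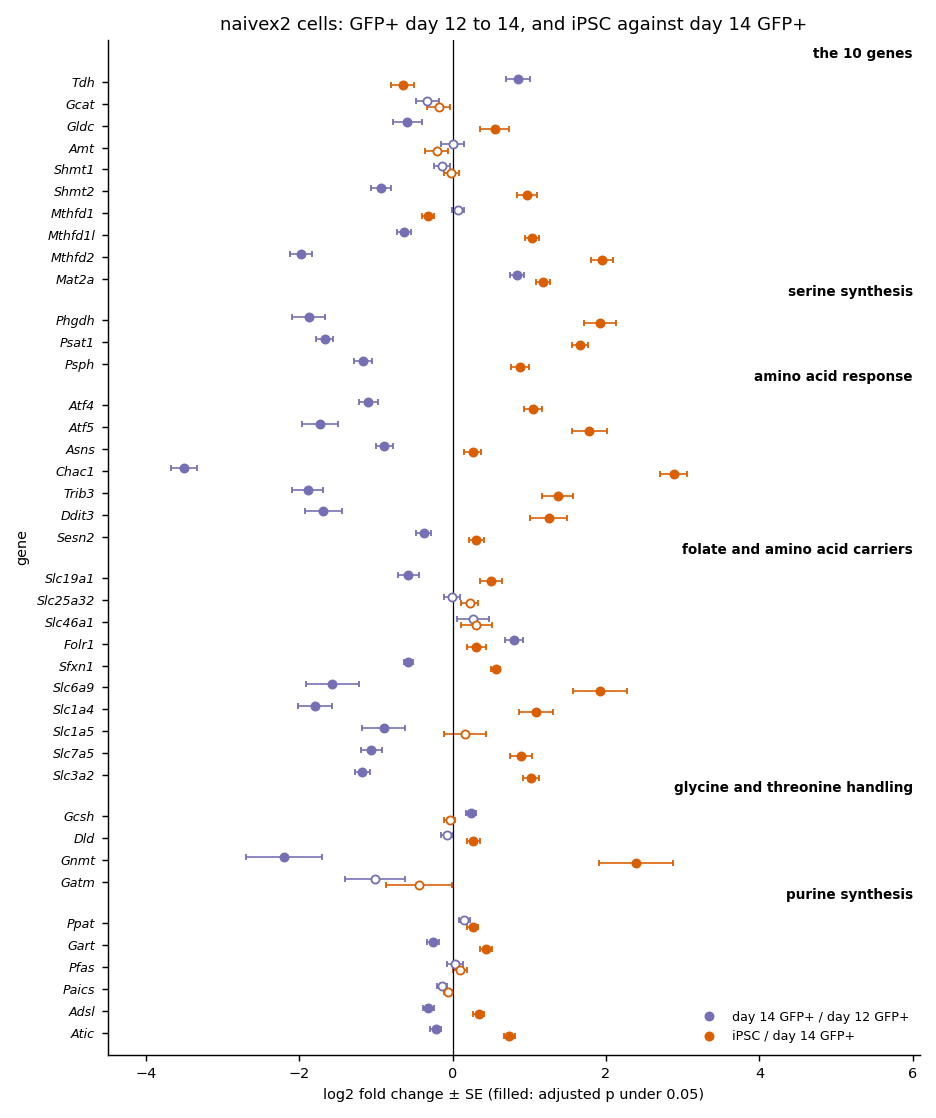
log2 fold changes ± SE of the 10 genes and of 5 pathway lists in naivex2 cells, for day 14 GFP+ over day 12 GFP+ cells (violet) and for iPSC over day 14 GFP+ cells (orange). Filled points passed an adjusted p of 0.05, and the 3 serine synthesis and 7 amino acid response genes lie left of 0 in violet and right of 0 in orange. The comparisons share the day 14 GFP+ libraries.

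In naivex2 iPSC Mthfd2, Mthfd1l, Shmt2 and Mat2a stood above day 14 GFP+ cells. Mthfd2 was at 244, 158 and 138 CPM in iPSC and 50.6, 46.9 and 42.5 CPM in day 14 GFP+ cells (1.95 ± 0.14, adjusted p = 1.19e-09). Mat2a was at 362, 407 and 402 CPM in iPSC and 195, 165 and 158 CPM in day 14 GFP+ cells (1.18 ± 0.09, adjusted p = 1.14e-09). Mthfd1l (1.03 ± 0.09, adjusted p = 9.15e-09) and Shmt2 (0.97 ± 0.13, adjusted p = 4.08e-06) also rose, and none of these groups overlapped, as for 53.1% of all genes. iPSC replicate 1 was the highest of the 3 for Mthfd2, Shmt2 and Mthfd1l. Tdh was at 353, 465 and 432 CPM in iPSC and 662, 664 and 631 CPM in day 14 GFP+ cells and fell (-0.65 ± 0.15, adjusted p = 0.00198), and Mthfd1 fell too (-0.32 ± 0.08, adjusted p = 0.00212). Gldc was called higher (0.55 ± 0.19, adjusted p = 0.0234) on iPSC replicate 1, since its log2 fold change without that library was 0.16 (adjusted p = 0.299), and the call was also lost without any day 14 GFP+ replicate (adjusted p = 0.0501 to 0.0747). The 5 rises and 2 falls stand beside 46.8% (24.3% higher and 22.5% lower) of all genes called. Of the fibroblast markers 6 of 10 were called higher and of 7 tested trophectoderm markers 4 lower in iPSC, with sums of 1260 to 3330 CPM in iPSC and 1610 to 2670 CPM in day 14 GFP+ cells for fibroblast and of 13.6 to 16.1 CPM in iPSC and 23 to 24.8 CPM in day 14 GFP+ cells for trophectoderm markers. Their part was not tested. The comparison shares the day 14 GFP+ libraries with that of day 14 and day 12, so the opposite signs are not independent. Serine synthesis rose in 3 of 3 genes (Phgdh 1.92 ± 0.21, adjusted p = 9.09e-07) and the amino acid response in 7 of 7 (Chac1 2.88 ± 0.18, adjusted p = 8.08e-11).

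Against MEF, naivex2 iPSC had 8 of the 10 genes higher and 0 lower, beside 77.3% (37.9% higher and 39.4% lower) of all genes called. The rises were those of Tdh (10.84 ± 0.30, adjusted p = 7.17e-17), Gldc (7.39 ± 0.29, adjusted p = 5.65e-14), Amt (6.04 ± 0.22, adjusted p = 2.09e-15), Shmt1 (1.73 ± 0.11, adjusted p = 4.32e-12), Mthfd1 (1.65 ± 0.08, adjusted p = 9.43e-14), Gcat (1.53 ± 0.16, adjusted p = 2.38e-08), Mthfd1l (0.68 ± 0.09, adjusted p = 3.67e-07) and Mat2a (0.66 ± 0.09, adjusted p = 4.65e-07). Shmt2 was 296 ± 73.6 CPM in iPSC and 255 ± 18.5 CPM in MEF (0.21 ± 0.13, adjusted p = 0.129), and Mthfd2 was 179.9 ± 55.9 CPM in iPSC and 186 ± 10.5 CPM in MEF (-0.05 ± 0.13, adjusted p = 0.726). These 2 did not pass the test, and their groups overlapped. Without iPSC replicate 3 Shmt2 was called higher (0.42, adjusted p = 0.000667), and without iPSC replicate 1 Mthfd2 was called lower (-0.31, adjusted p = 0.00216). Phgdh was lower in iPSC, at 145 ± 45.6 CPM against 343 ± 8.24 CPM in MEF (-1.25 ± 0.20, adjusted p = 1.40e-05), and so was the mitochondrial formyltetrahydrofolate dehydrogenase Aldh1l2, at 6.65 ± 2.44 CPM against 125 ± 18.3 CPM in MEF (-4.24 ± 0.18, adjusted p = 9.80e-15). Their lists were split. Of 3 serine synthesis genes 1 was higher and 1 lower, and of 10 other folate enzymes tested 5 were higher and 5 lower.

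Between GFP+ and GFP- naivex2 cells 1 of the 10 genes was called at day 12 and 3 at day 14, or 4 and 5 with only the compared groups in the fit. At day 12 Tdh was at 378, 356 and 355 CPM in GFP+ cells and 350.0, 399.6 and 337 CPM in GFP- cells, a log2 fold change of 0.00 ± 0.15, adjusted p = 0.999, and the groups overlapped. Mthfd1 was at 516, 526 and 598 CPM in GFP+ cells and 678, 644 and 713 CPM in GFP- cells and fell (-0.31 ± 0.08, adjusted p = 0.00756), the 1 call among the 10 genes, beside 16.6% (9.93% higher and 6.69% lower) of all genes. Gldc was at 278, 277 and 314 CPM in GFP+ cells and 184, 212 and 204 CPM in GFP- cells, without overlap, as for 39.5% of all genes, and did not pass the test (0.53 ± 0.19, adjusted p = 0.0636). Fitted on these 2 groups alone, or by DESeq2, Gldc did pass (adjusted p = 8.59e-05 and 0.0385). At day 14 Shmt2 was at 142, 162 and 149 CPM in GFP+ cells and 98.9, 109.9 and 109.6 CPM in GFP- cells and rose (0.51 ± 0.13, adjusted p = 0.00446), Mthfd1l rose (0.34 ± 0.09, adjusted p = 0.00543) and Mthfd1 fell (-0.27 ± 0.08, adjusted p = 0.0104), beside 31.3% (14.4% higher and 16.9% lower) of all genes called. The call of Mthfd1 was lost without day 14 GFP+ replicate 1 (adjusted p = 0.0591) or replicate 2 (adjusted p = 0.0507). Fibroblast markers summed to 1610 to 2670 CPM in day 14 GFP+ cells and 3160 to 5180 CPM in day 14 GFP- cells, and their part in the result was not tested. The difference of the GFP effect between day 14 and day 12 was called for 0 of the 10 genes by edgeR with all groups in the fit and for 0 by DESeq2, with 2 at an unadjusted p under 0.05 (Gldc at -0.63 ± 0.27 and Mthfd1l at 0.32 ± 0.12), beside 1.54% (0.688% higher and 0.855% lower) of all genes called. With only the compared groups in edgeR's fit, Gldc (-0.6, adjusted p = 0.00719), Shmt2 (0.32, adjusted p = 0.0268) and Mthfd1l (0.35, adjusted p = 0.022) were called.

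In totalx2 cells GFP+ and GFP- cells of the same day stood far apart in Tdh, Gldc and Amt. At day 10 Tdh was at 413, 432 and 463 CPM in GFP+ cells and 110.1, 115 and 113 CPM in GFP- cells (1.95 ± 0.29, adjusted p = 6.12e-05). Amt was at 64.4, 57.0 and 74.3 CPM in GFP+ cells and 13.1, 11.5 and 10.5 CPM in GFP- cells (2.47 ± 0.18, adjusted p = 7.73e-09), and Gldc was at 129, 97.9 and 101 CPM in GFP+ cells and 53.4, 33.7 and 33.7 CPM in GFP- cells (1.44 ± 0.20, adjusted p = 2.72e-05). Every GFP+ library was above every GFP- library for these genes and for Mthfd2, which was 81.3 ± 4.15 CPM in GFP+ cells and 53.3 ± 2.22 CPM in GFP- cells (0.61 ± 0.14, adjusted p = 0.00413). Of all genes 39.9% did not overlap. These 4 rises, with no fall, stand beside 22.4% (13% higher and 9.36% lower) of all genes called. Fibroblast markers summed to 4310 to 11500 CPM in day 10 GFP+ cells and 2980 to 8380 CPM in day 10 GFP- cells, and pluripotent markers to 2430 to 2580 CPM in GFP+ and 662 to 917 CPM in GFP- cells. Of 8 leukocyte markers 7 were called higher and 1 lower in GFP+ cells, with sums of 231 to 327 CPM in GFP+ and 232 to 302 CPM in GFP- cells, and the part of these markers was not tested. In bulk RNA a smaller share of cells that express a gene and less of its RNA per cell cannot be told apart.

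At day 12 the log2 fold changes of Tdh, Gldc and Amt were larger than at day 10. For Amt the difference between the days did not pass the test given below. Shmt1, Shmt2, Mthfd1 and Mthfd1l, not called at day 10, were called at day 12. Tdh was at 488, 466 and 503 CPM in GFP+ cells and 47.5, 61.6 and 65.7 CPM in GFP- cells (3.06 ± 0.30, adjusted p = 1.15e-07). Gldc was at 323, 290.0 and 297 CPM in GFP+ cells and 61.7, 38.2 and 43.3 CPM in GFP- cells (2.66 ± 0.20, adjusted p = 3.10e-09). Mthfd2 was at 94.3, 126 and 133 CPM in GFP+ cells and 25.4, 32.1 and 30.5 CPM in GFP- cells (2.01 ± 0.15, adjusted p = 1.71e-09). None of these groups overlapped, as for 72.9% of all genes. Amt (2.77 ± 0.18, adjusted p = 3.08e-10), Gcat (1.48 ± 0.26, adjusted p = 7.12e-05), Mthfd1l (0.77 ± 0.09, adjusted p = 7.48e-07), Shmt1 (0.76 ± 0.12, adjusted p = 2.54e-05), Shmt2 (0.70 ± 0.12, adjusted p = 6.86e-05) and Mthfd1 (0.47 ± 0.13, adjusted p = 0.00351) were higher in GFP+ than in GFP- cells as well. Mat2a was 242 ± 14.9 CPM in GFP+ cells and 229 ± 11.9 CPM in GFP- cells and did not pass the test (0.08 ± 0.08, adjusted p = 0.415). The 9 rises stand beside 61.6% (31.2% higher and 30.4% lower) of all genes called, and the median log2 fold change of the 10 genes was 1.13, against 0.05 for all genes. Mthfd1 was no longer called without day 12 GFP- replicate 3 (0.33, adjusted p = 0.0533). All 3 serine synthesis genes, all 6 purine synthesis genes and 5 of 7 amino acid response genes rose. Asns, which makes asparagine, had the largest rise of the listed response genes (2.61 ± 0.11, adjusted p = 1.63e-12). The other lists went both ways. Of 10 other folate enzymes tested 4 rose and 2 fell, and of 10 carriers 5 rose and 2 fell. Of 13 tested methionine cycle genes 8 rose and 2 fell, and of 5 tested glycine and threonine handling genes 2 rose and 2 fell. Fibroblast markers summed to 2170 to 2610 CPM in day 12 GFP+ cells and 9220 to 12300 CPM in day 12 GFP- cells, and their part in the result was not tested.

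The GFP effect differed between days 12 and 10 in totalx2 cells for 7 genes, beside 27.3% (10.5% higher and 16.7% lower) of all genes. The difference of log2 fold changes, day 12 less day 10, was 1.40 ± 0.21, adjusted p = 0.000203 for Mthfd2, 1.22 ± 0.28, adjusted p = 0.00359 for Gldc, 0.76 ± 0.13, adjusted p = 0.000456 for Mthfd1l, 0.72 ± 0.17, adjusted p = 0.00462 for Shmt2, 0.59 ± 0.17, adjusted p = 0.015 for Shmt1, 1.11 ± 0.40, adjusted p = 0.0445 for Tdh and 1.04 ± 0.36, adjusted p = 0.0378 for Gcat. For Tdh the call was lost without any of the 12 libraries (adjusted p = 0.0581 to 0.11), and for Gcat without any of 10 of the 12, all but day 10 GFP+ replicate 1 and day 10 GFP- replicate 3 (adjusted p = 0.051 to 0.0962). Shmt1 lost it without day 10 GFP- replicate 1 (adjusted p = 0.0594) or day 10 GFP+ replicate 2 (adjusted p = 0.0596). Amt (0.29 ± 0.25, adjusted p = 0.424), Mthfd1 (0.36 ± 0.18, adjusted p = 0.15) and Mat2a (0.13 ± 0.11, adjusted p = 0.437) did not pass. Between day 12 and day 10 GFP+ cells Tdh, Gcat, Shmt1, Shmt2 and Mthfd1l were not called, whereas Gldc and Mthfd2 rose.

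**Figure D4:**
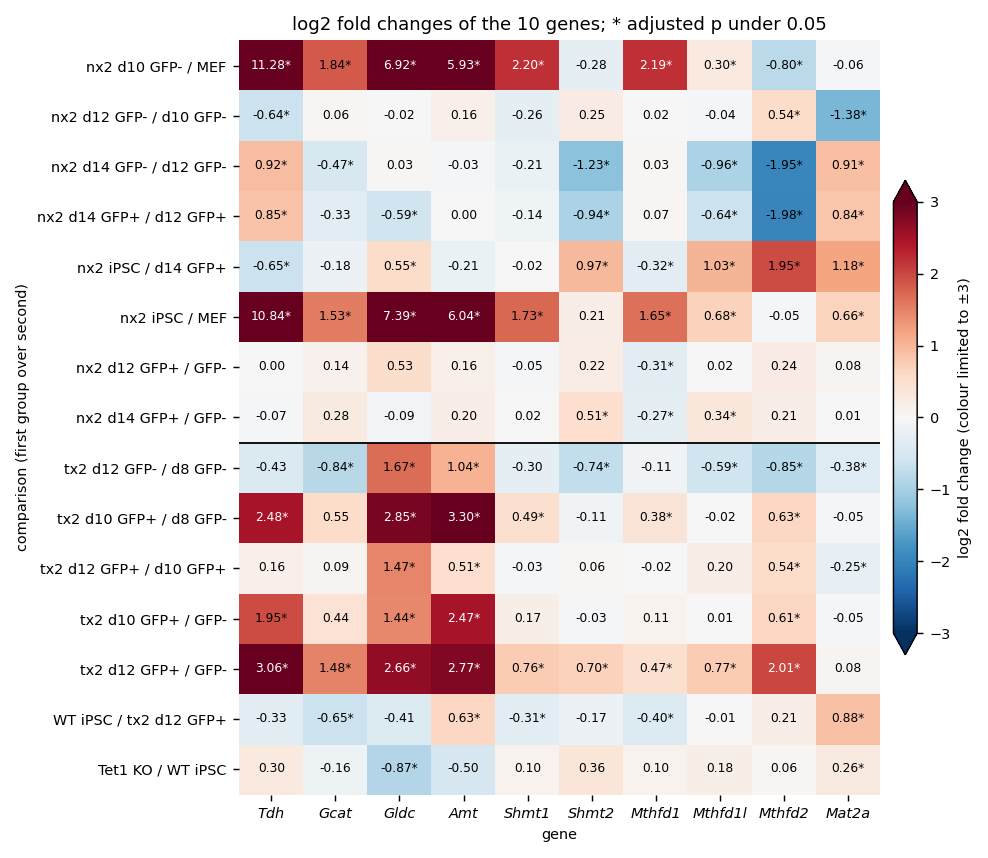
log2 fold changes of the 10 genes (columns) in 15 comparisons (rows, the group named before the slash over the one after it), with the colour limited to ±3 and a star at an adjusted p under 0.05. nx2 is naivex2 (above the line) and tx2 totalx2 (below it, with the rows of wild-type and Tet1 KO iPSC). Tdh, Gldc and Amt are deep red against MEF and lighter to deep red in totalx2 GFP+ against GFP- cells. Mthfd2 is positive in some rows and negative in others.

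In totalx2 GFP- cells Tdh was 78.0 ± 47.3 CPM at day 8, 113 ± 2.41 CPM at day 10 and 58.2 ± 9.53 CPM at day 12, with day 8 replicate 3 at 132 CPM the highest GFP- library. The difference between days 12 and 10 was not tested. Between day 12 and day 8 Tdh did not pass the test (-0.43 ± 0.29, adjusted p = 0.282), and without day 8 replicate 3 its log2 fold change was 0.21 (adjusted p = 0.489). Between day 12 and day 8 GFP- cells Gldc (1.67 ± 0.21, adjusted p = 1.60e-05) and Amt (1.04 ± 0.21, adjusted p = 0.000789) rose, and Mthfd2 (-0.85 ± 0.15, adjusted p = 0.000272), Shmt2 (-0.74 ± 0.12, adjusted p = 0.000152), Mthfd1l (-0.59 ± 0.09, adjusted p = 8.56e-05), Mat2a (-0.38 ± 0.08, adjusted p = 0.00118) and Gcat (-0.84 ± 0.26, adjusted p = 0.0197) fell, beside 31.6% (17.1% higher and 14.5% lower) of all genes called. Gldc was at 61.7, 38.2 and 43.3 CPM at day 12 and 18.6, 11.7 and 14.9 CPM at day 8, without overlap, as for 51.2% of all genes. Gcat lost its call without day 12 replicate 1 or 3 or day 8 replicate 1 or 3 (adjusted p = 0.0621 to 0.0909). Shmt1 (-0.30 ± 0.12, adjusted p = 0.0694) passed with the line as a block (-0.29, adjusted p = 0.0467) and without day 8 replicate 2 (-0.39, adjusted p = 0.0274). Fibroblast markers summed to 9220 to 12300 CPM at day 12 and 13100 to 20400 CPM at day 8. Trophectoderm markers summed to 29.9 to 35.8 CPM at day 12 and 6.11 to 8.73 CPM at day 8, with 6 of 7 tested called higher, and the part of either list was not tested.

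Day 10 GFP+ cells against day 8 GFP- cells, which differ in gate as well as in day, had 6 rises and 0 falls beside 42.7% (22.6% higher and 20.1% lower) of all genes called. Amt (3.30 ± 0.20, adjusted p = 2.44e-10), Gldc (2.85 ± 0.22, adjusted p = 6.36e-09) and Tdh (2.48 ± 0.29, adjusted p = 2.58e-06) had the largest values, and Mthfd2 (0.63 ± 0.15, adjusted p = 0.00185), Shmt1 (0.49 ± 0.12, adjusted p = 0.00293) and Mthfd1 (0.38 ± 0.13, adjusted p = 0.0215) followed. Fibroblast markers summed to 4310 to 11500 CPM in day 10 GFP+ cells and 13100 to 20400 CPM in day 8 GFP- cells. Leukocyte markers summed to 231 to 327 CPM in day 10 GFP+ cells and 154 to 197 CPM in day 8 GFP- cells, with 7 of 8 called higher, and the part of either list was not tested. Without day 8 replicate 3 Tdh was at 3.09 (adjusted p = 7.77e-09), above the 2.85 of Gldc. Mthfd1 lost its call without day 10 GFP+ replicate 1 (adjusted p = 0.13) or day 8 replicate 2 (adjusted p = 0.122). From day 10 to day 12 in GFP+ cells Gldc went on rising, at 323, 290.0 and 297 CPM at day 12 and 129, 97.9 and 101 CPM at day 10 (1.47 ± 0.20, adjusted p = 3.58e-05), while Tdh was at 488, 466 and 503 CPM at day 12 and 413, 432 and 463 CPM at day 10 and did not pass the test (0.16 ± 0.28, adjusted p = 0.738). Mthfd2 (0.54 ± 0.14, adjusted p = 0.01) and Amt (0.51 ± 0.17, adjusted p = 0.0302) rose and Mat2a fell (-0.25 ± 0.08, adjusted p = 0.0258), beside 25.1% (12.2% higher and 12.9% lower) of all genes called. At the same time the fibroblast markers summed to 2170 to 2610 CPM at day 12 and 4310 to 11500 CPM at day 10, which was likewise not tested. Of these 4 calls Gldc alone held when any single library was left out. Without day 10 GFP+ replicate 2 it was the only call (Mthfd2 adjusted p = 0.0581, Amt 0.162, Mat2a 0.159). Mthfd2 was also lost without day 12 replicate 3 (adjusted p = 0.0642), Mat2a without day 12 replicate 1 or 2 (adjusted p = 0.0613 and 0.121), and Amt without any library but day 10 GFP+ replicate 3 (adjusted p = 0.0515 to 0.162). Mthfd1l was called higher without day 10 GFP+ replicate 1 (0.30, adjusted p = 0.0265).

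Wild-type iPSC were set against day 12 GFP+ totalx2 cells, from which they differ in strain and reporter as well as in stage, and these cannot be told apart. Mat2a was at 484, 434 and 421 CPM in wild-type iPSC and 243, 226 and 255 CPM in day 12 GFP+ cells (0.88 ± 0.08, adjusted p = 4.37e-08), and every iPSC library was higher, while 54.4% of all genes did not overlap. Amt rose (0.63 ± 0.16, adjusted p = 0.00329), and Gcat (-0.65 ± 0.25, adjusted p = 0.0376), Mthfd1 (-0.40 ± 0.13, adjusted p = 0.0132) and Shmt1 (-0.31 ± 0.12, adjusted p = 0.0354) fell, beside 51.1% (25% higher and 26% lower) of all genes called. Without wild-type replicate 1, the library with 12.18% mitochondrial counts, Mthfd1 was at -0.24 (adjusted p = 0.0778) and Shmt1 at -0.16 (adjusted p = 0.199), and Mthfd2 was called higher (0.37, adjusted p = 0.0173). Gcat was at 15.1 CPM in that library and at 51.3 and 47.1 CPM in the other wild-type clones. In day 12 GFP+ cells Gcat was at 57.1, 55.9 and 67.4 CPM. Its log2 fold change ran from -0.89 to -0.28 over the alternative fits. Gcat and Shmt1 were lost without any day 12 GFP+ replicate (adjusted p = 0.052 to 0.139) and Mthfd1 without replicate 1 of it (adjusted p = 0.085). With library totals alone the median log2 fold change of all genes was -0.15, against -0.01 as reported.

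In Tet1 KO iPSC, Tet1 itself, which encodes a 5-methylcytosine dioxygenase, was at 54.4, 58.6 and 57.3 CPM, against 1303, 823 and 874 CPM in wild-type iPSC. Gldc was at 121, 131 and 124 CPM in Tet1 KO clones and 179, 254 and 253 CPM in wild-type clones, without overlap, as for 28% of all genes. It fell by a log2 fold change of -0.87 ± 0.19, adjusted p = 0.00666, and it stayed called in every library left out. Mat2a was at 518, 543 and 542 CPM in Tet1 KO and 484, 434 and 421 CPM in wild-type clones and rose (0.26 ± 0.08, adjusted p = 0.0395), a call lost without any Tet1 KO replicate or wild-type replicate 2 or 3 (adjusted p = 0.0537 to 0.0981). Amt was at 101, 102 and 102 CPM in Tet1 KO and 107, 169 and 154 CPM in wild-type clones and did not pass (-0.50 ± 0.16, adjusted p = 0.0547). The 2 calls stand beside 10.7% (4.78% higher and 5.87% lower) of all genes. Wild-type replicate 1 stood low for Tdh, at 242 CPM against 457 CPM in each of the other wild-type clones, and for Gcat, at 15.1 CPM against 51.3 and 47.1 CPM. Without it Gldc was at -1.01, and Amt (-0.66, adjusted p = 0.00444) and Gcat (-0.51, adjusted p = 0.00474) were called lower in Tet1 KO clones. Shmt2 did not pass the test (0.36 ± 0.12, adjusted p = 0.0655). It was called higher without wild-type replicate 2 (0.47, adjusted p = 0.022) and by DESeq2 (0.36, adjusted p = 0.0412). With all libraries Tdh (0.30 ± 0.28, adjusted p = 0.51), Gcat (-0.16 ± 0.25, adjusted p = 0.732), Shmt1 (0.10 ± 0.12, adjusted p = 0.65), Mthfd1 (0.10 ± 0.13, adjusted p = 0.668), Mthfd1l (0.18 ± 0.09, adjusted p = 0.206) and Mthfd2 (0.06 ± 0.14, adjusted p = 0.807) did not pass the test. In the lists around them Psat1 (0.43 ± 0.11, adjusted p = 0.016), Atf4 (0.45 ± 0.10, adjusted p = 0.00628) and Sesn2 (0.64 ± 0.13, adjusted p = 0.00346), a stress-induced leucine sensor, were higher in Tet1 KO clones. These were the only calls among 3 serine synthesis and 7 amino acid response genes. Of 13 tested methionine cycle genes 3 were higher and 1 lower, and the remaining lists held no call.

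Over the 21 libraries of the naivex2 table Tdh, Gldc, Amt, Gcat, Shmt1 and Mthfd1 correlated with each other at Pearson's r of 0.90 to 0.99, and Shmt2, Mthfd1l and Mthfd2 at 0.84 to 0.95. Mthfd2 and Tdh were at r = -0.43, and Mat2a was at 0.19 or below with every other member. In the totalx2 table, which has no MEF, Tdh and Mthfd2 were at r = 0.89, Gldc and Amt at 0.94, Gcat with Amt at 0.30 and with Gldc at 0.33, Mthfd1 with Amt at 0.23 and with Gldc at 0.32, and Mthfd1 and Mat2a at -0.27. These are descriptions, since libraries of a group share their conditions. The naivex2 values include the same 3 MEF libraries throughout, and the part of those libraries was not tested.

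**Figure D5:**
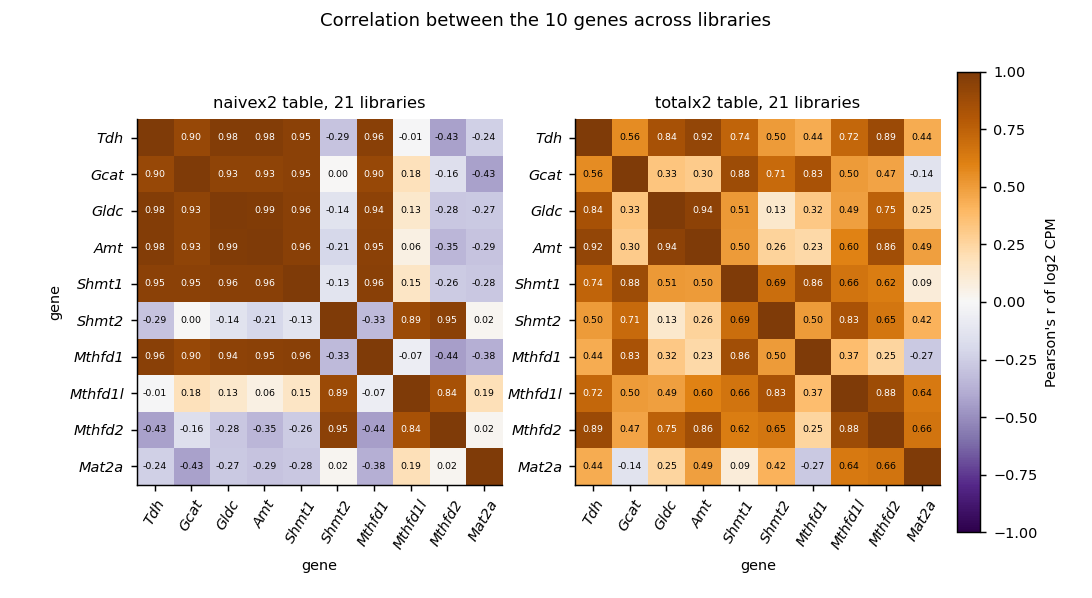
Pearson's r of log2 CPM between each pair of the 10 genes over the 21 libraries of the naivex2 table (left) and of the totalx2 table (right). Orange-brown marks positive and violet negative r, and Mthfd2 is at -0.43 with Tdh on the left and at 0.89 on the right.

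All tested genes but those with predicted or clone names were ranked by their likeness to Tdh. Over 21 naivex2 libraries the genes most like Tdh were Nanog (r = 0.996), Zscan10 (0.996), Serpina3m (0.994), Tdgf1 (0.994) and Zfp473 (0.993), among 13834 genes. These values include the MEF libraries, where Tdh was far lower than in any other naivex2 group. The part of those libraries was not tested. Far down the same ranking r was still high, at 0.979 for Plekhf2 (rank 60) and 0.942 for Mylpf (rank 491). Over the 21 libraries of the other table they were Plekhf2 (0.96), Fam169a (0.959), Zscan10 (0.957), Rfc5 (0.955) and Mylpf (0.955), among 13341 genes. Nanog, a pluripotency factor, was at r = 0.949 there (rank 10). Serpina3m was at 0.928 (rank 70), Tdgf1 at 0.911 (rank 152) and Zfp473 at 0.894 (rank 238) in that table.

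Per kilobase of exon, as annotated in GENCODE vM21, the order of levels differed between cells. In naivex2 iPSC Tdh was highest at 159 CPM per kb, followed by Mthfd1 at 104, Shmt2 at 95.2, Mat2a at 87.0, Mthfd2 at 51.6, Amt at 47.8, Gldc at 46.2, Shmt1 at 40.8, Mthfd1l at 37.0 and Gcat at 20.6 CPM per kb. SDs were 23.7 for Shmt2, 18.4 for Gldc and 5.77 CPM per kb for Mthfd1l (n = 3). From Mthfd1 to Mat2a and from Mthfd2 to Mthfd1l, each gene and the next in order did not differ beyond their spread. Mthfd1 (SD 6.96) and Mat2a (SD 5.48) lay further apart than their spread, and the order was not tested. In MEF Shmt2 was highest at 82.1, followed by Mat2a at 55.1 and Mthfd2 at 53.5 CPM per kb, and Tdh was last at 0.0943 CPM per kb. In totalx2 day 12 GFP- cells Mthfd1 led at 98.9 and Tdh stood at 22.3 CPM per kb, against 186 CPM per kb for Tdh in day 12 GFP+ cells. Reads in introns are part of these counts, so genes with long introns are not strictly comparable. Genes annotated on the same strand inside Mthfd1l (Gm16074 and Gm25515) and Mthfd2 (Gm43890) cover 0 bases of their exons.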

How the data were processed

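Libraries were made with a stranded mRNA kit and 14 cycles of PCR, per the labels' protocols. What the authors deposited are unnormalized read counts for each gene name, made with featureCounts 1.5.3 from gene features, so that introns count too, with strand setting 2 (reverse), as the file headers record. Reads from a gene and from its antisense partner are therefore counted apart, and by that tool's default a read in 2 genes of the same strand is not counted. The headers name GENCODE vM10 for the naivex2 table and GENCODE GRCm38.p5 for the other. Alignment by HISAT2 2.1.0 to mm10 and testing by DESeq2 1.18.1 are given in the submitters' processing notes. Each table holds 21 libraries, and 0 columns lacked a sample. Levels are compared within a table only, since the tables come from separate counting runs with different annotations, per the file headers.

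Counts were filtered with filterByExpr (minimum count 10), given TMM factors (0.7818 to 1.07), and compared by quasi-likelihood F tests of edgeR 4.0.16 (limma 3.58.1, R 4.3.3), with all 7 groups of a table in 1 fit. P-values were adjusted by Benjamini-Hochberg over all genes and called at 0.05. The test was also run on simulated counts, and the outcome is not given here. CPM uses TMM-scaled totals, and log2 levels for correlations a prior count of 2.

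The genes and lists were chosen with earlier results of these data known, and the naivex2 GFP- comparisons of day 12 with day 10 and of day 14 with day 12 were added after the levels had been seen. Named beside the 10 genes are Tet1, the 5 genes most like Tdh in each table, and the called genes with the 2 largest rises and 2 largest falls of the 7 pathway lists (58 genes), of which those that bear on a described change are given. Atf4 and Aldh1l2, Asns or Phgdh where outside that rule, were named after their values were seen.

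Replicate numbers are lines in the naivex2 and totalx2 sets, so same-numbered libraries come from the same line. Their deviations from the group means correlated at 0.126 to 0.593 in totalx2 (30 of 30 pairs over 0.1) and at -0.121 to 0.359 in naivex2 (32 of 63 over 0.1). In totalx2 15 of 15 libraries, and in naivex2 19 of 21, correlated best with their own number. The main fit had no term for the line. In the iPSC of the totalx2 table the number names a clone and pairs nothing. The alternatives, planned except for those of the 2 added comparisons, used other size factors (RLE) or plain library totals, dropped the filter or raised it to 1 CPM in 3 libraries, fitted the compared groups by themselves, took the line as a replicate block, replaced edgeR by DESeq2 1.42.0, or left out each library in turn or both libraries with more than 8% mitochondrial counts. Lines are biological replicates, and intervals cover counting error only. Promoters are from RefSeq on GRCm38.p6, gene spans from the deposited tables and exon lengths from GENCODE vM21. Figures were drawn with matplotlib 3.10.9.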

Additional observations from a re-analysis of the deposited data

Results flagged for a closer look

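In totalx2 cells the effect of GFP, as the log2 fold change of GFP+ over GFP- cells, was larger at day 12 than at day 10 for 7 of the 10 genes, by the contrast of the 4 groups in edgeR's quasi-likelihood test, beside 27.3% of all genes called. Leaving out single libraries gave 4 to 6 genes, with Tdh lost without any of the 12 libraries and Gcat without any of 10 of them. The difference, day 12 less day 10, was 1.40 for Mthfd2, 1.22 for Gldc, 1.11 for Tdh, 1.04 for Gcat, 0.76 for Mthfd1l, 0.72 for Shmt2 and 0.59 for Shmt1. In GFP+ cells between days 12 and 10, Tdh (0.16), Gcat (0.09), Shmt1 (-0.03), Shmt2 (0.06) and Mthfd1l (0.2) were not called. Gldc (1.47) and Mthfd2 (0.54) rose. Mean GFP- levels at days 10 and 12 were 43.1 and 22.3 CPM per kb of exon for Tdh and 17.4 and 9.07 for Gcat. They were 48.4 and 31.5 for Shmt1, 62 and 39.2 for Shmt2 and 25.9 and 17.5 for Mthfd1l. Gldc was at 6.61 and 7.84 and Mthfd2 at 15.3 and 8.42, and these GFP- changes were not tested. Over the same days the fibroblast markers of GFP- cells summed to 9220 to 12300 CPM at day 12 and 2980 to 8380 CPM at day 10, those of GFP+ cells to 2170 to 2610 CPM at day 12 and 4310 to 11500 CPM at day 10, and their part in the difference was not tested.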

How the results depend on the processing

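Members' values kept their direction and side of the threshold in 178 of 180 cases with RLE size factors, 172 with library totals alone, 170 with no low-count filter, 179 with at least 1 CPM in 3 libraries, 175 with DESeq2 and 160 with only the groups compared in the fit, and in 1117 of 1200 cases with a library left out. With library totals alone 1 direction reversed, that of Mat2a in day 10 naivex2 cells against MEF (0.23), and the median of all genes moved to 0.34 there, to 0.31 for naivex2 iPSC against MEF and to -0.15 for wild-type iPSC against totalx2 day 12 GFP+ cells. With only the groups compared, the number of members called was 4 for naivex2 GFP at day 12 (DESeq2 2, against 1 as reported), 5 for GFP at day 14 (3 reported), 3 for the difference of those effects (0 reported), 2 for wild-type iPSC against day 12 GFP+ cells (5 reported) and 1 for Tet1 KO iPSC (2 reported). With no filter it was 2 for totalx2 GFP+ day 12 against day 10 (4 reported) and 1 for Tet1 KO, and with library totals alone 4 for the difference of totalx2 GFP effects (7 reported). Leaving out single libraries gave 1 to 4 for totalx2 GFP+ day 12 against day 10, 2 to 5 for wild-type iPSC against day 12 GFP+ cells, 1 to 4 for Tet1 KO and 4 to 6 for the difference of totalx2 GFP effects. Tet1 KO iPSC had 4 by DESeq2, 4 without the library of 12.18% mitochondrial counts and 4 with the replicate block. The causes were not tested.

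With the replicate block no call was lost, and beside Shmt1 in totalx2 GFP- cells it added Amt (-0.48, adjusted p = 0.0373) and Shmt2 (0.38, adjusted p = 0.0497) in Tet1 KO iPSC and Gldc in wild-type iPSC against day 12 GFP+ cells (-0.43, adjusted p = 0.00289). The iPSC clones there share only a number. Their same-numbered deviations correlated at -0.0909 to 0.0163, and 1 of 6 libraries correlated best with its own number.

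The block changed no other of the 180 calls. Counts over all genes changed by over 1.5 times with only the groups compared, to 928 against 249 for the difference of naivex2 GFP effects (DESeq2 412), 448 against 1619 for Tet1 KO, 5171 against 7761 for wild-type iPSC against day 12 GFP+ cells and 1440 against 3258 for naivex2 GFP- day 12 against day 10. Leaving out single libraries gave as few as 117 for the difference of naivex2 GFP effects and 832 to 2581 for Tet1 KO. It gave 2107 against 3818 for totalx2 GFP+ day 12 against day 10 (without day 10 GFP+ replicate 2) and 2043 for naivex2 GFP- day 12 against day 10 (without day 12 GFP- replicate 1). Depth limits Tdh, Gldc and Amt in MEF, where 10, 76 and 81 reads were counted in 3 libraries.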

Other observations

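Other genes of the lists changed too. Folr1, a folate receptor, was 89.4 CPM in naivex2 iPSC and 0.337 CPM in MEF (log2 fold change 8.06, adjusted p = 8.68e-18), and it rose in GFP+ against GFP- cells at totalx2 day 12 (1.64, adjusted p = 7.47e-07) and at naivex2 days 12 (1.04, adjusted p = 9.40e-06) and 14 (0.47, adjusted p = 0.00578). Cbs, which condenses homocysteine with serine, rose in naivex2 iPSC against MEF (4.04, adjusted p = 7.80e-15) and fell in naivex2 iPSC against day 14 GFP+ cells (-1.39, adjusted p = 5.16e-09). Aldh1l2, a mitochondrial formyltetrahydrofolate dehydrogenase, was 10.3 CPM in day 10 naivex2 cells and 125 CPM in MEF (-3.60, adjusted p = 6.99e-14), while its cytosolic relative Aldh1l1 was 2.72 CPM in day 10 cells and 0.634 CPM in MEF (2.12, adjusted p = 6.94e-06). Of 6 purine synthesis genes 5 rose in day 10 naivex2 cells against MEF, beside 76.4% of all genes called (38.8% higher and 37.6% lower), with Ppat, the amidotransferase that opens the pathway, rising by the most (1.91, adjusted p = 1.02e-15). These values are from edgeR's quasi-likelihood test with Benjamini-Hochberg adjustment.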
